A study of Xenopus laevis with 3 samples.

Results

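Among the germ cells of juvenile *Xenopus laevis* ovaries, 490 cells carried a transcript of *rec8.L* and had low or no counts of 8 other marker genes. They were chosen by their counts of unique molecular identifiers (UMIs), which stand for captured transcripts. Each had at least 1 UMI of *rec8.L*, and *ddx4.L*, *ddx4.S* and *dazl.L* summed to at least 20 per 10000 UMIs. The synaptonemal genes *hormad1.S* and *sycp1.L* summed to under 5 per 10000, and *dmc1.L*, *spo11.L*, *ccnb3.S*, *cyp26a1.S*, *piwil4.S* and *zp4.L* had 0 UMIs. Ovary 1 held 53 of these cells, ovary 2 held 352 and ovary 3 held 85, among 17147 cells that had 100 to 8000 genes detected and mitochondrial UMIs of no more than 1.5%. All results below rest on 3 ovaries, since cells of the same ovary are not independent samples.

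The study sequenced single cells of ovaries from wild-type, untreated juvenile animals between Nieuwkoop-Faber stages 62 and 66, at the end of metamorphosis. A library was made from each of 3 ovaries, labelled as biological replicates, with 10000 cells loaded. The libraries held 34060121 to 54585110 UMIs. No treatment or genotype was compared, so every comparison here is between cells of the same ovaries. The *rec8.L*-positive cells were set against 3 groups. The *rec8.L*-negative cells (160, 982 and 508 in ovaries 1, 2 and 3) met every other term of the same rule and had 0 UMIs of *rec8.L*. A shallow cell can lack such a UMI and still express the gene, so some of these cells may express *rec8.L*. The oogonia (26, 65 and 23 cells) carried *cyp26a1.S*, an enzyme that degrades retinoic acid, in place of *rec8.L*. The leptotene-zygotene cells (139, 909 and 310 cells) had *hormad1.S* and *sycp1.L* at or above the limit and a UMI of *dmc1.L* or *spo11.L*.

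Meiosis begins in germ cells that have stopped dividing by mitosis and replicate their DNA a last time before prophase. During this replication the mitotic kleisin subunit of cohesin, the ring that holds sister chromatids together, is partly replaced by Rec8. Chromosome axes then form on the Rec8 cohesin, Spo11 cuts the DNA, Dmc1 helps to repair the cuts from the homologous chromosome, and the synaptonemal complex joins the homologs. In *Xenopus*, as in other animals with germline cysts, sister germ cells enter meiosis while linked by intercellular bridges. The study reported limited asynchrony of the cell cycle within cysts and proposed that a leader cell may advance first through meiosis. Ddx4, an RNA helicase, and Dazl, an RNA-binding protein, mark germ cells through all these steps.

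Of the 1683 germ cells with a *rec8.L* UMI, most failed the rule through the other genes. The *hormad1.S* and *sycp1.L* limit excluded 119, 481 and 178 cells in ovaries 1, 2 and 3, and a UMI of *dmc1.L*, the meiotic recombinase, occurred in 87, 355 and 109. The *rec8.L*-positive cells that remained were 7.32% of the germ cells of ovary 1 (exact binomial 95% interval 5.53 to 9.47%). They were 8.82% (7.96 to 9.74%) of those of ovary 2 and 4.32% (3.46 to 5.31%) of those of ovary 3. These intervals cover counting error only. At the limit itself, 3, 27 and 4 members had 4 to under 5 per 10000 of *hormad1.S* and *sycp1.L*, and 3, 29 and 8 cells with *rec8.L* lay just outside, at 5 to under 6. At the low end, 32, 198 and 67 members had 0 UMIs of both genes.

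The germ cell markers of the rule were high in these cells, as the rule required. *ddx4.L* stood at 41.8, 31.1 and 34.0 per 10000 UMIs in ovaries 1, 2 and 3. *dazl.L* stood at 15.0, 4.49 and 9.10. The label of pre-meiotic cells was checked against 3 genes of oocytes. *figla.L* encodes an oocyte transcription factor that activates zona pellucida genes, *velo1.L* a protein of the Balbiani body, and *42sp43.L* a protein that binds 5S RNA for storage in growing *Xenopus* oocytes. A UMI of any of the 3 was found in 321 of the 490 cells. The share was 34.0, 71.0 and 62.4% of the *rec8.L*-positive cells of ovaries 1, 2 and 3, against 20.1, 17.5 and 56.1% of somatic cells, which give the background of free RNA. In the *rec8.L*-positive cells under 5000 UMIs, a limit set after their depths were seen, it was 33.3, 23.4 and 53.6%, so that in shallow cells of ovary 3 such a UMI was no more frequent than in somatic cells. At or above 5000 UMIs it was 220 of 224 cells in ovary 2 and 16 of 16 in ovary 3, and 2 of 5 in ovary 1. *figla.L* alone was in 20.8, 67.6 and 28.2% of the *rec8.L*-positive cells and in 1.69, 4.21 and 5.42% of somatic cells. The data thus went against the label for most deep cells of ovaries 2 and 3. In the shallow cells the shares of the markers differed. By the share of cells with a UMI, *42sp43.L* did not set them apart from the background, at 14.6, 11.7 and 37.7% against 14.0, 14.0 and 44.8% in somatic cells. Its level per 10000 UMIs, given below, was higher in the shallow cells than in the somatic cells of each ovary. *figla.L* was above its somatic shares in each ovary, at 18.75, 16.41 and 13.04% of the shallow cells.

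The *rec8.L*-positive cells differed widely in depth. Under the limit of 5000 UMIs lay 48, 128 and 69 cells of ovaries 1, 2 and 3, and at or above it lay 5, 224 and 16 cells, 245 on each side. The deep cells carried 23.7, 92.2 and 51.1% of all UMIs of the *rec8.L*-positive cells. In summed counts, therefore, ovary 2 was mostly deep cells and ovary 1 mostly shallow cells. The median depth was 2822 UMIs in ovary 1, 9405.5 in ovary 2 and 1824 in ovary 3.

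The level of *rec8.L* per cell fell with depth, as the plot of *rec8.L* level against depth shows. In the cells under 5000 UMIs it stood at 8.80, 8.75 and 9.27 per 10000 UMIs in ovaries 1, 2 and 3, against 2.06, 0.874 and 1.23 in the deep cells. The 2 sets of values did not overlap, but the rule asks for at least 1 UMI, so that the floor of the level falls as depth grows. Of all 490 cells, 316 had a single *rec8.L* UMI and 174 had 2 or more, and 191 of the 245 deep cells had a single one. Both values follow in large part from the rule, and no difference in *rec8.L* between shallow and deep cells is read from them. Thinning each cell to 1000 UMIs does not remove this, since every cell was chosen for at least 1 UMI. After thinning *rec8.L* was found in 50, 64.7 and 66.2% of the shallow cells and in 20, 13.8 and 6.25% of the deep ones. The leptotene-zygotene cells, for which *rec8.L* was not used, had 21.97, 12.6 and 14.6% after thinning (51.1, 32.9 and 27.1% before). Somatic cells, a background of free RNA that may be set too low, had 0.326, 0.839 and 0.126% after thinning and 0.964, 1.58 and 0.590% before. Their median depth was 2356, 1810.5 and 1498 UMIs. Thinning left out 10, 12 and 4 of the *rec8.L*-positive cells.

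**Figure D1:**
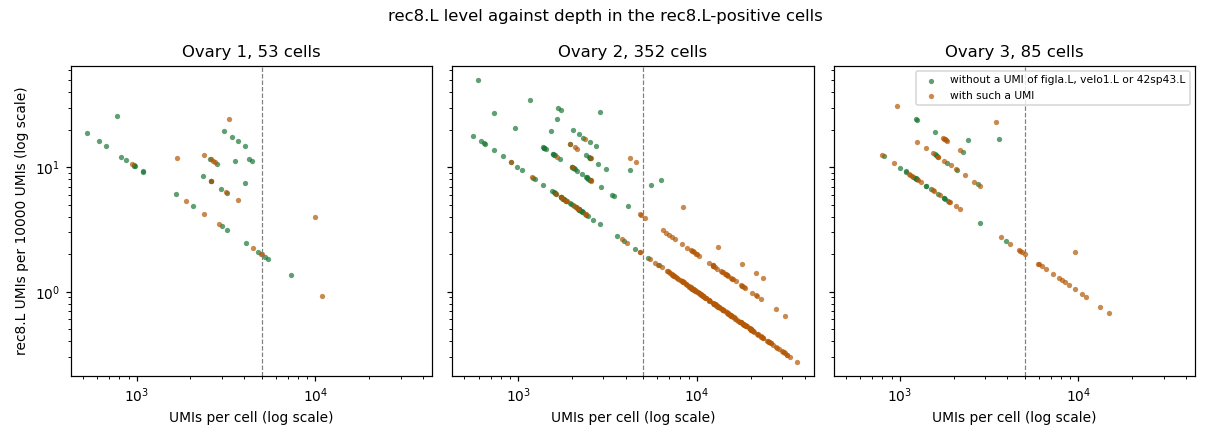
*rec8.L* level (UMIs per 10000, log scale) against the UMIs of the cell (log scale) for each of the 490 *rec8.L*-positive cells, with a panel for each ovary. Green cells had no UMI of *figla.L*, *velo1.L* or *42sp43.L* and orange cells had at least 1; the dashed line is at 5000 UMIs. The lowest points form bands because a cell has a whole number of *rec8.L* UMIs, and 224 of the 352 cells of ovary 2 lie at or right of the line.

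The deep cells of ovaries 2 and 3 had high levels of oocyte genes. *42sp43.L* stood at 5.40, 24.2 and 14.3 per 10000 in the deep cells, against 2.72, 2.35 and 6.55 in the shallow cells and 0.609, 0.793 and 3.60 in somatic cells. *figla.L* stood at 2.32, 5.47 and 3.53 in the deep cells, against 0.960, 1.45 and 0.979 in the shallow ones. In ovary 1 the deep cells were only 5, and *42sp43.L* was found in 1 of them and *figla.L* in 2, so that the values of that ovary describe single cells. Both genes were higher in the deep cells of ovaries 2 and 3. *dazl.L* went the other way, at 9.78, 3.50 and 4.25 in the deep cells, against 16.6, 16.2 and 14.2 in the shallow ones. The rule used *dazl.L* to choose these cells, so no difference in it is read from these values. The summed level of 97 DNA replication genes was 57.1, 62.4 and 66.5 per 10000 in the deep cells and 90.4, 75.8 and 81.1 in the shallow ones. *mcm6.L*, a subunit of the replicative helicase, stood at 0.772, 0.131 and 0.0721 in the deep cells, against 1.84, 1.48 and 1.05 in the shallow ones. Depth divided these cells after their values were seen, and no test of the 2 sets was made.

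Each comparison was therefore made both on all cells and on the cells without a UMI of *figla.L*, *velo1.L* or *42sp43.L*, called here cells without oocyte transcripts. Free RNA of oocytes can give such a UMI to a cell that does not express the gene, so some of the cells set aside may not be oocytes. These comprised 35, 102 and 32 *rec8.L*-positive cells of ovaries 1, 2 and 3, 169 in all, of which 7 had 5000 UMIs or more. Their median depth was 2822, 2021.5 and 1580 UMIs, against 3083, 2063 and 1257 in the *rec8.L*-negative cells chosen in the same way. The oogonia were deeper, at 6448, 3906 and 3056.5 UMIs, and the leptotene-zygotene cells had 2280, 2512 and 1860. A shallow cell can lack such a UMI at the same level of the gene, so this choice also favours shallow cells. The 3 comparisons share the *rec8.L*-positive cells, and their results are not independent of each other.

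The somatic content of the *rec8.L*-positive cells was low. The summed level of 6 somatic lists was 2.93, 9.76 and 6.85 per 10000 in the cells without oocyte transcripts, against 177, 286 and 299 in somatic cells. The somatic cells were chosen by UMIs of these same lists. The red blood cell genes summed to 0.732, 0.454 and 1.26 per 10000 in the *rec8.L*-positive cells and to 0.544, 51.4 and 0.923 in the *rec8.L*-negative cells. The *rec8.L*-negative cells of ovary 2 thus carried globin and related transcripts, of which 10 of the 14 listed genes were detected in the 3 ovaries. Stroma genes summed to 0.627, 6.67 and 2.52 in the *rec8.L*-positive cells, against 1.47, 1.03 and 10.7 in the *rec8.L*-negative cells. The part of these transcripts in the results below was not tested.

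For each group the UMIs of its cells were added up within an ovary, and the 3 sums of either group were compared by edgeR's quasi-likelihood test. Genes with an adjusted p under 0.05 (Benjamini-Hochberg, all tested genes) are termed called, and the 12 genes of the rule and the 13 mitochondrial genes were not tested. The same held for *figla.L*, *velo1.L* and *42sp43.L* where they set cells aside. Over all cells, the *rec8.L*-positive cells and the *rec8.L*-negative cells differed in 0 of 12340 genes (0%) by edgeR, with 117 genes at an unadjusted p under 0.05. DESeq2 called 1 gene. With the ovary as a block, which pairs the groups of an ovary, edgeR called 69 genes higher and 21 lower. The level of *42sp43.L* varied between the ovaries in both groups. In the *rec8.L*-positive cells it ranged from 3.36 per 10000 in ovary 1 to 22.5 in ovary 2, while the *rec8.L*-negative cells had 3.58, 27.5 and 32.4. The part of this variation in the count of 0 was not tested.

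Without the cells with oocyte transcripts, 141 of 4052 genes (3.48%) differed from the *rec8.L*-negative cells. In the *rec8.L*-positive cells 90 were higher (2.22%) and 51 lower (1.26%). The genes with the largest rises were mostly genes of the motile cilium and flagellum. The call count depended on the ovaries used: it was 0 when ovary 1 or ovary 2 was left out and 57 when ovary 3 was left out. Such fits also have fewer sums per group and so less power. With the ovary as a block it was 606, with 324 genes higher and 282 lower.

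*rsph6a.L*, a radial spoke protein of sperm flagella, had 3.97, 3.09 and 3.42 UMIs per 10000 in the *rec8.L*-positive cells of ovaries 1, 2 and 3, against 0.924, 1.08 and 1.30 in the *rec8.L*-negative cells. Every ovary was higher and the groups did not overlap (log2 difference 1.68 ± 0.23 SE, adjusted p = 0.00412 by edgeR). *mns1.S*, a filament protein inside axonemal microtubules, had 3.14, 3.68 and 2.34 against 1.11, 1.15 and 1.19 (log2 difference 1.49 ± 0.23 SE). *traf3ip1.S*, a subunit of the intraflagellar transport complex, had 1.46, 2.04 and 1.98 against 0.353, 0.609 and 0.597, a log2 difference of 1.84 ± 0.31 SE (adjusted p = 0.00601 by edgeR). The groups did not overlap for either gene. *dnal1.L*, a light chain of outer dynein arms, had 1.99, 2.50 and 1.80 against 0.571, 0.795 and 0.814. *odad2.S*, which docks those arms, had 1.88, 2.40 and 2.34 against 0.353, 0.981 and 0.977. *cfap45.S*, a cilia and flagella associated protein, had 2.82, 2.31 and 2.16 against 0.707, 1.01 and 0.760. For these 3 genes the log2 difference was 1.60 ± 0.27, 1.55 ± 0.33 and 1.53 ± 0.26 SE, and again no ovary overlapped. *cfap54.L* and *efcab10.L* were both higher by 1.52 on the log2 scale. Outside the axoneme, *atp1b1.L*, a subunit of the sodium pump, had 1.67, 2.27 and 1.80 against 0.734, 0.727 and 0.597 (1.51 ± 0.27 SE). The suffixes .L and .S mark the homeologs of a gene. How reads that match both were counted is not given in the sources used here, so that the level of either is uncertain.

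**Figure D2:**
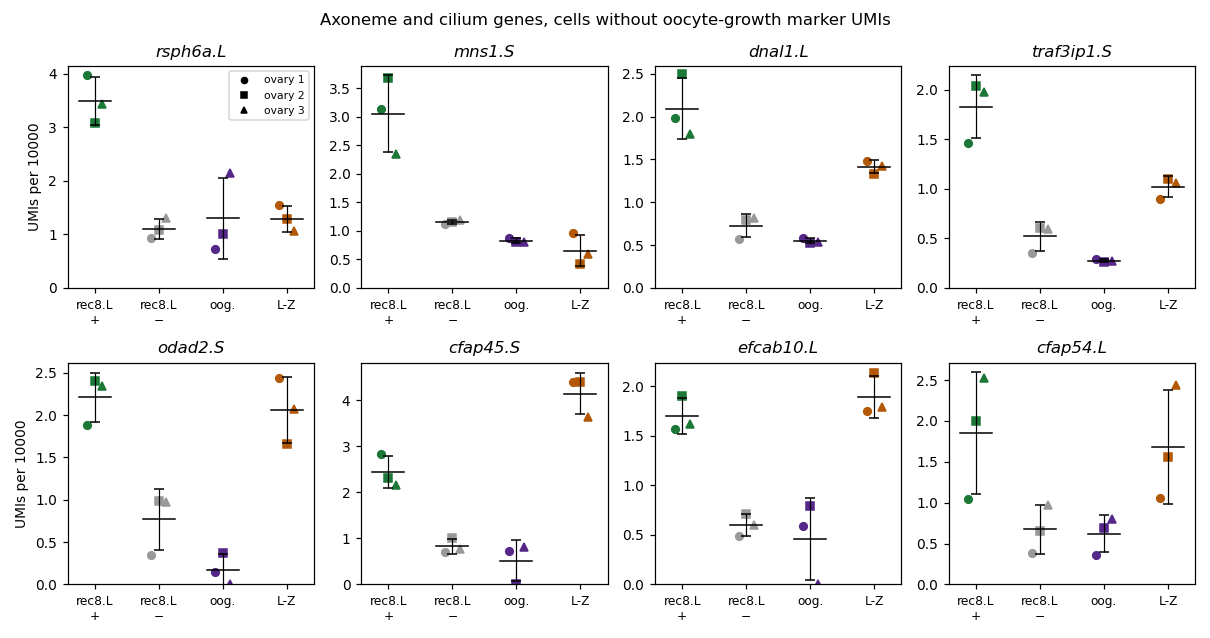
Levels of 8 axoneme and cilium genes (UMIs per 10000) in cells without oocyte transcripts: *rec8.L*-positive cells, *rec8.L*-negative cells, oogonia and leptotene-zygotene cells. Points are the 3 ovaries (circle, square and triangle for ovaries 1, 2 and 3), bars are their mean and whiskers the SD; *rsph6a.L* had 3.97, 3.09 and 3.42 in *rec8.L*-positive cells and at most 1.30 in *rec8.L*-negative cells.

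The extent of this pattern was counted over all gene symbols of that kind, a family that was chosen after these values were seen and that is given without a test. It took symbols starting with *cfap*, *dnah*, *dnai*, *dnal*, *rsph*, *odad*, *drc* or *ift*, together with *ccdc39*, *ccdc40*, *mns1*, *traf3ip1* and *efcab10*. Of 105 such genes with a count in either group, 90 were higher in the *rec8.L*-positive cells and 15 lower, with a median log2 difference of 1.14 in the fit without a filter on low counts. The filter kept 41 of them. Of these 20 were called higher and 0 lower, where the share of all tested genes called higher was 2.22%, and 34 were higher and 0 lower in all 3 ovaries. The 20 included *dnai1.L* and *dnai2.S* (dynein intermediate chains), *ccdc39.L* (a ruler protein of the axoneme), *ift81.L* (intraflagellar transport) and both homeologs of *mns1*. The block gave 30 calls higher and DESeq2 16, both with 0 lower, where 324 and 47 of 4052 tested genes were called higher. Without ovary 1 or ovary 2 no gene of the family was called, but 45 of 47 and 31 of 31 were higher. The median log2 difference over all tested genes was -0.01 and -0.04 in these 2 fits. Over all cells 72 of 79 family genes were higher and 7 lower. There edgeR and DESeq2 both called 0, with 22 higher and 0 lower at an unadjusted p under 0.05 by edgeR. The block called 15 higher, where it called 69 of 12340 tested genes higher. In the cells under 5000 UMIs 27 of 47 were called higher and 0 lower, where 108 of 4819 tested genes were called higher.

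Within the *rec8.L*-positive cells the axoneme and cilium symbols had lower levels in the deep cells for most genes. Of 106 family genes with a UMI, 77 were lower in the deep cells than in the shallow cells of all 3 ovaries and 4 were higher. Their summed level was 23.9, 19.2 and 21.9 per 10000 in the deep cells, against 84.2, 72.4 and 65.7 in the shallow ones. In somatic cells it was 5.83, 5.70 and 5.60, and 92 of the 106 genes were below the shallow cells in each ovary. Neither count was made over all genes, so how far the family stood apart by these counts is not known. The deep sum of ovary 1 held only 5 cells, in which a gene of low level can lack a UMI. *rsph6a.L* had 0.257, 0.0884 and 0.360 UMIs per 10000 in the *rec8.L*-positive cells at or above 5000 UMIs, against 3.28, 2.89 and 2.86 in those under it. *mns1.S* had 0.515, 0.235 and 0.288 in the deep cells, against 3.36, 3.07 and 1.81 in the shallow ones. *odad2.S* had 0, 0.128 and 0.216 in the deep cells, against 2.56, 1.99 and 1.81 in the shallow ones. The 2 sets of cells were apart for each of these 3 genes, which were picked for their change. In somatic cells *rsph6a.L* stood at 0.0102, 0.0637 and 0.0261, and *odad2.S* had 2 UMIs in all. *cfap45.S* was detected more in somatic cells, at 0.549 in the somatic cells of ovary 1, against 0.0708 and 0.0667 in ovaries 2 and 3.

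**Figure D3:**
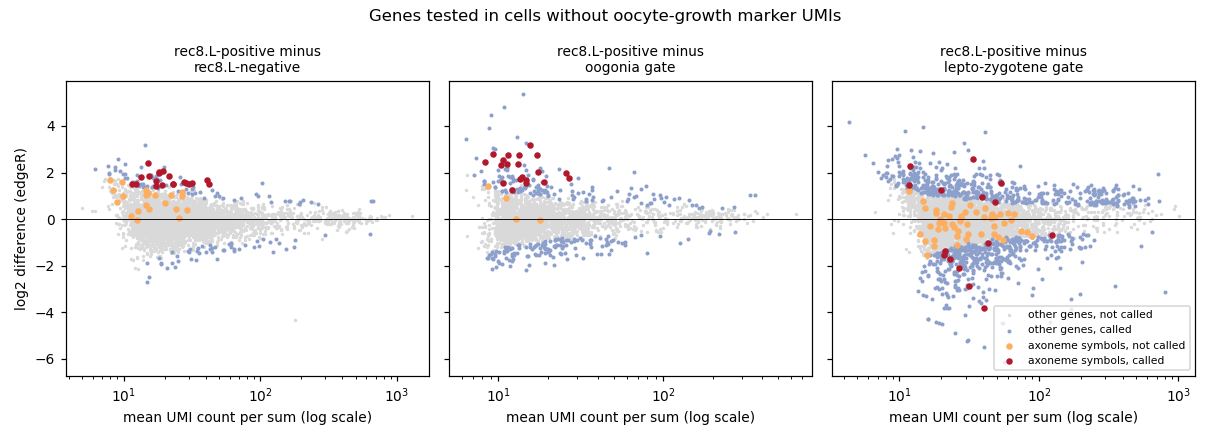
Log2 difference (*rec8.L*-positive cells over the other group) against the mean count per sum (log scale) for each gene tested, in cells without oocyte transcripts, with a panel for each of the 3 comparisons. Red points (called) and orange points (not called) are the axoneme and cilium symbols. Their medians were 1.45 against *rec8.L*-negative cells, 1.91 against oogonia and -0.17 against leptotene-zygotene cells. Blue points are the other genes that were called, and grey points the other genes that were not.

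The other 2 genes of meiotic cohesin gave no call without the pairing by ovary, and *smc1b.L* was called with it. *smc1b.L*, the SMC subunit of meiotic cohesin, had 9.41, 14.5 and 16.0 UMIs per 10000 in the *rec8.L*-positive cells, against 5.57, 10.3 and 9.07 in the *rec8.L*-negative cells. It was higher in each of 3 ovaries, but the ranges overlapped and the test was not passed (log2 difference 0.68 ± 0.22 SE, adjusted p = 0.0891 by edgeR). With the ovary as a block its log2 difference was 0.66 ± 0.12 SE and it passed (adjusted p = 4.42e-06 by edgeR). *stag3.L*, the meiotic stromalin, had 1.05, 1.5 and 0.721 against 0.598, 0.846 and 1.03 and was the lower of the pair in the *rec8.L*-positive cells of ovary 3. *smc1a.S*, the SMC subunit of mitotic cohesin, was called lower. It had 0.314, 0.681 and 0.360 in the *rec8.L*-positive cells and 1.33, 1.40 and 1.36 in the *rec8.L*-negative cells (log2 difference -1.38 ± 0.34 SE, adjusted p = 0.0329 by edgeR). It was the only call among 14 tested genes of the cohesin core and its regulators.

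Among 56 tested DNA replication genes, 3 were called higher, 0 lower and 53 not called, where 2.22 and 1.26% of all tested genes were called higher and lower. The median log2 difference was 0.05 against -0.01 over all genes tested. Over all cells edgeR called 0 of 91, with 1 higher and 0 lower at an unadjusted p under 0.05. *fen1.L*, the flap endonuclease that trims Okazaki fragments, had 8.78, 6.90 and 11.5 UMIs per 10000, against 4.32, 6.26 and 4.89 in the *rec8.L*-negative cells. *dbf4.L*, the activator of the kinase that fires origins, had 1.99, 2.13 and 1.98 against 0.761, 1.15 and 0.977. *dnmt1.S*, the maintenance DNA methyltransferase, had 2.30, 2.59 and 1.80 against 1.22, 1.25 and 1.30. No value overlapped for any of the 3 genes, with log2 differences of 0.77 ± 0.21, 1.09 ± 0.26 and 0.90 ± 0.23 SE. *mcm6.L* had 1.67, 1.72 and 1.08 against 1.03, 1.01 and 0.977 and was not called (adjusted p = 0.196 by edgeR, 0.0441 with the block). Of 15 tested genes of mitotic division edgeR called 0, and 1 was higher and 1 lower at an unadjusted p under 0.05.

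Of the synaptonemal genes only *sycp3.L*, a component of the chromosome axis, was called, of 2 tested. It had 1.15, 1.41 and 2.52 UMIs per 10000 in the *rec8.L*-positive cells, against 0.245, 0.524 and 0.814 in the *rec8.L*-negative cells (log2 difference 1.67 ± 0.39 SE, adjusted p = 0.0256 by edgeR). Its mean count was below the minimum of 20 per sum set for naming a gene, and it was picked after its values were seen. *spata22.L*, a partner of Meiob at recombination sites, had 1.99, 1.68 and 2.88 against 0.870, 1.10 and 1.09, just short of the threshold (adjusted p = 0.0501 by edgeR), and it passed with the block (adjusted p = 0.00157). Neither gene was used in the rule, and *hormad1.S* and *sycp1.L* were held under 5 per 10000 in both groups.

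The lower genes with the largest differences had various roles. *phax.L*, an export adaptor of small nuclear RNAs, had 0.209, 0.227 and 0.360 UMIs per 10000 in the *rec8.L*-positive cells, against 0.979, 0.879 and 1.47 in the *rec8.L*-negative cells. *naf1.L*, an assembly factor of box H/ACA ribonucleoproteins, had 0.314, 0.590 and 0.180 against 1.36, 1.57 and 1.52. *utp11.L*, of the small subunit processome, had 0.209, 0.363 and 0.541 against 1.58, 0.947 and 1.25. The groups were apart in each case, with log2 differences of -2.08 ± 0.43, -1.73 ± 0.35 and -1.80 ± 0.41 SE. *kif20b.S*, a kinesin of the midbody, had 1.46, 0.771 and 1.62 against 3.13, 3.04 and 2.61 (-1.37 ± 0.27 SE) and was 1 of 6 tested bridge and midbody genes. *mrpl24.L* (mitochondrial ribosome), *dnajc25.S* (a DnaJ co-chaperone), *ube3a.S* (a ubiquitin ligase), *hmg20b.S* and *bzw1.S* fell as well, by 1.46 to 2.06 on the log2 scale.

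Against the oogonia, 52 of 4349 genes (1.2%) were called over all cells, 24 higher (0.552%) and 28 lower (0.644%). With the ovary as a block 428 were called. *figla.L* was among the higher genes at 1.28, 5.16 and 2.28 UMIs per 10000, against 0.225, 0.747 and 0.551 in the oogonia (log2 difference 2.58 ± 0.54 SE). *ybx2.S*, which binds and stores maternal mRNA, had 2.38, 9.82 and 5.97 against 1.12, 1.73 and 1.24. *dnd1.L*, dead end, which protects germ cell mRNAs from microRNAs in the zebrafish, was lower at 0.183, 0.261 and 0.221 against 1.29, 1.02 and 1.10 (-2.21 ± 0.35 SE). The calls did not outlast the loss of ovary 2 or of ovary 3, where the count was 0, and it was 174 when ovary 1 was left out. *cyp26a1.L*, the homeolog of the gene that chose the oogonia, had 0.122, 0.211 and 0.442 against 0.618, 1.26 and 1.79. It was not called (adjusted p = 0.0598 by edgeR), but it passed with the block (adjusted p = 0.000283).

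Without the cells with oocyte transcripts, 303 of 2302 genes (13.2%) differed from the oogonia, 162 higher (7.04%) and 141 lower (6.13%). Leaving out an ovary gave 45 to 271 calls, the lowest without ovary 2, and with the block the count was 487. The axoneme and cilium symbols gave 20 calls higher and 0 lower of 24 tested. A gene near 0 in the oogonia could pass the filter on low counts through the *rec8.L*-positive cells alone. Without the filter 26 of 103 were called higher and 0 lower, where 114 of 23543 tested genes were called higher. Of the 103, 98 were higher and 5 lower. Over all cells edgeR and DESeq2 called 0 of 21, with 5 higher and 0 lower at an unadjusted p under 0.05 by edgeR, a median log2 difference of 0.61 and 8 higher in all 3 ovaries. *odad2.S* had 1.88, 2.40 and 2.34 UMIs per 10000 in the *rec8.L*-positive cells, against 0.147, 0.371 and 0 in the oogonia. *traf3ip1.S* had 1.46, 2.04 and 1.98 against 0.293, 0.265 and 0.269, a log2 difference of 2.76 ± 0.41 SE. *mns1.S* had 3.14, 3.68 and 2.34 against 0.880, 0.794 and 0.806 (2.00 ± 0.29 SE). These levels in the oogonia were below the lowest ovary of the *rec8.L*-positive cells in all 3 genes.

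The same cells had higher levels of genes outside the axoneme as well. *gapdh.L*, of glycolysis, had 5.44, 5.58 and 9.55 UMIs per 10000, against 1.32, 1.38 and 2.15 in the oogonia (log2 difference 2.21 ± 0.29 SE, adjusted p = 3e-05 by edgeR). *gadd45a*, a gene of the response to stress and DNA damage, was higher in both homeologs. *gadd45a.S* had 4.18, 2.77 and 2.52 against 1.03, 0.477 and 0.806, and *gadd45a.L* had 2.93, 3.54 and 3.06 against 1.25, 1.11 and 1.34. *hmgn1.L*, which binds nucleosomes, had 8.99, 8.62 and 11.5 against 3.96, 3.23 and 4.30 (1.41 ± 0.22 SE). In each of these genes the groups were apart.

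The meiotic genes that could be tested against the oogonia were few. *sycp3.L* had 1.15, 1.41 and 2.52 UMIs per 10000, against 0.366, 0.371 and 0 in the oogonia (adjusted p = 0.00152 by edgeR). *hfm1.L*, a helicase of crossover formation, had 2.19, 2.31 and 1.62 against 1.03, 1.06 and 1.61, with a log2 difference of 0.98 ± 0.30 SE. *pld6.S*, a mitochondrial nuclease of the piRNA pathway, had 4.81, 3.40 and 2.34 against 1.54, 2.12 and 0.538 (1.15 ± 0.30 SE). *rad50.L*, which processes DNA breaks, was lower, at 2.19, 2.59 and 2.52 against 4.10, 5.67 and 5.11. *smc1b.L*, at 9.41, 14.5 and 16.0 against 5.35, 9.85 and 12.9, was higher in each ovary and was not called (adjusted p = 0.0681 by edgeR), but it passed with the block (adjusted p = 0.000125).

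Of 32 tested DNA replication genes 3 were called higher and 1 lower, where 7.04 and 6.13% of all tested genes were, so that the list did not stand apart by its count. *fen1.L* had 8.78, 6.90 and 11.5 UMIs per 10000 against 5.06, 5.77 and 6.72 in the oogonia (log2 difference 0.67 ± 0.22 SE). *dnmt1.S* had 2.30, 2.59 and 1.80 against 1.17, 1.16 and 1.08 (1.06 ± 0.28 SE). Both genes were higher in every ovary. *smc2.L*, a condensin subunit, was lower at 0.627, 0.908 and 1.62, against 2.93, 3.81 and 2.69 (-1.73 ± 0.30 SE). Also lower were *parp1.L*, the poly(ADP-ribose) polymerase of DNA repair, at 1.88, 1.82 and 1.62 against 4.40, 5.35 and 6.72, and *supt16h.S*, a subunit of the FACT histone chaperone (-1.53 ± 0.29 SE). *kif20b.S* was lower too, at 1.46, 0.771 and 1.62 against 3.30, 2.65 and 4.57. Of 6 tested genes of mitotic division edgeR called 0, also at an unadjusted p under 0.05.

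Against the leptotene-zygotene cells, 390 of 9672 genes (4.03%) were called over all cells, 129 higher (1.33%) and 261 lower (2.7%), and 1566 with the ovary as a block. Of 18 tested oocyte growth genes 1, *42sp43.L*, was called higher and 0 lower, with a median log2 difference of 0.13. *42sp43.L* had 3.36, 22.5 and 10.5 UMIs per 10000 in the *rec8.L*-positive cells, against 0.341, 0.688 and 2.45 (log2 difference 3.59 ± 0.73 SE). *igfbp5.S*, which binds insulin-like growth factors, had 0.366, 2.34 and 0.921 against 0, 0.143 and 0.221, and *igfbp5.L* had 0.183, 0.756 and 0.479 against 0, 0.0808 and 0.0414. All 3 genes were higher in the *rec8.L*-positive cells of each ovary. The count was 0 without ovary 2, 31 without ovary 3 and 550 without ovary 1.

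Without the cells with oocyte transcripts, 989 of 4534 genes (21.8%) differed from the leptotene-zygotene cells, 525 higher (11.6%) and 464 lower (10.2%). Leaving out an ovary gave 12 to 935 calls, with the 12 without ovary 2. The rule held *hormad1.S*, *sycp1.L*, *dmc1.L* and *spo11.L* low in the *rec8.L*-positive cells and high in the leptotene-zygotene cells. Genes that vary with those 4 differ through this choice, and their values describe how far apart the groups stood.

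All 6 tested crossover genes were called lower, where 10.2% of all tested genes were, with a median log2 difference of -3.19. The filter on low counts kept 1 crossover gene against the *rec8.L*-negative cells and 1 against the oogonia. Genes near 0 in the *rec8.L*-positive cells thus passed it here through the leptotene-zygotene cells. Meiotic genes also chose the 2 groups, so no separate result is read from this count. *tex11.L*, of the meiotic crossover machinery, had 0, 0.0454 and 0.360 UMIs per 10000 in the *rec8.L*-positive cells, against 1.80, 2.28 and 1.88 in the leptotene-zygotene cells. *msh5.L*, which stabilizes crossover intermediates, had 0, 0.0454 and 0.180 against 1.01, 0.863 and 0.827, and *mcmdc2.L* had 0, 0.0908 and 0 against 1.01, 1.20 and 0.919. *hfm1.L* was nearer, at 2.19, 2.31 and 1.62 against 4.77, 6.31 and 5.65 (log2 difference -1.30 ± 0.23 SE). The fitted differences of genes with so few counts depend on the prior count, and so does the median. Of 10 tested genes of DNA breaks and recombinases, 4 were called lower and 1 higher, where 10.2 and 11.6% of all tested genes were. *spata22.L* had 1.99, 1.68 and 2.88 against 9.70, 7.36 and 6.29 (-1.83 ± 0.26 SE). *meiob.L*, its partner, had 0.314, 0.0908 and 0.180 against 1.86, 1.46 and 1.52.

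The synaptonemal complex was not lower to the same degree for all genes. *syce2.L*, of its central element, had 0.209, 0.318 and 1.08 UMIs per 10000, against 6.52, 6.56 and 6.61 in the leptotene-zygotene cells (log2 difference -3.85 ± 0.35 SE). *tex12.L*, its partner in the central element, had 0.418, 0.272 and 0.360 against 1.91, 2.11 and 1.75. *sycp3.L* had 1.15, 1.41 and 2.52 against 4.14, 3.84 and 4.36, a log2 difference of -1.28 ± 0.27 SE. Meiotic cohesin did not pass the test, with or without the block. *smc1b.L* had 9.41, 14.5 and 16.0 against 11.5, 12.6 and 14.6 (0.14 ± 0.21 SE), and *stag3.L* had 1.05, 1.5 and 0.721 against 0.795, 0.996 and 0.735 (0.57 ± 0.33 SE). A p that misses the threshold does not show equal levels. *terb1.L*, which tethers telomeres to the nuclear envelope, was the only call among 7 tested bouquet genes, at 0.314, 0.136 and 0.541 against 1.06, 0.667 and 0.827.

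**Figure D4:**
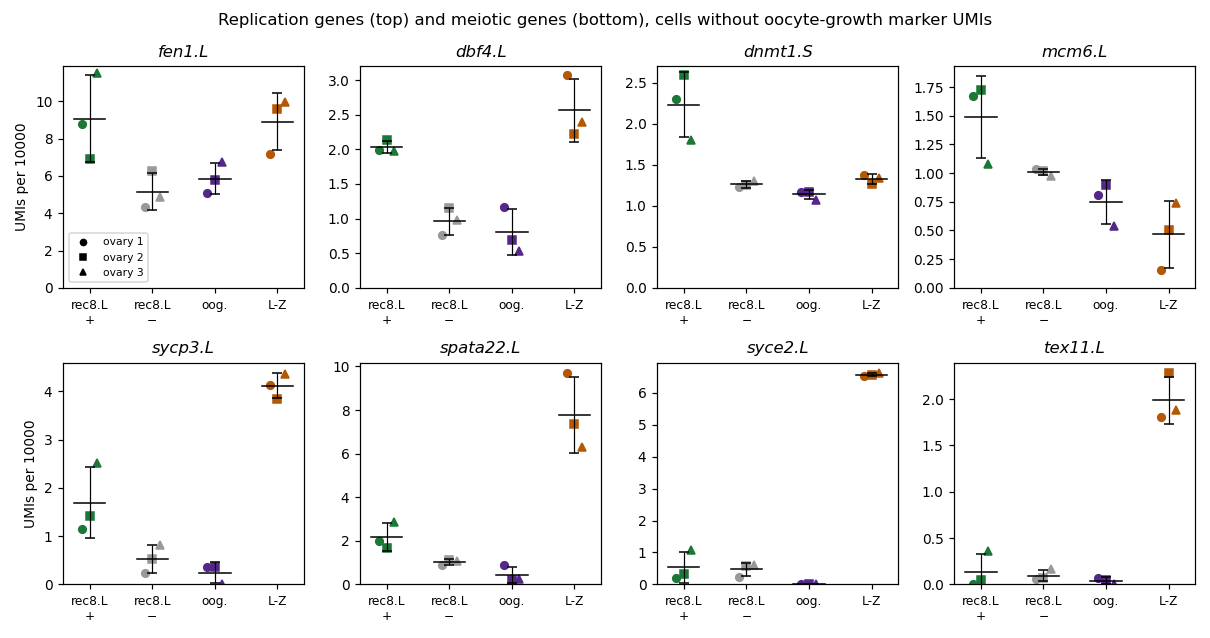
Levels of 4 DNA replication genes (top) and 4 meiotic genes (bottom), as UMIs per 10000, in cells without oocyte transcripts of the 4 groups, from *rec8.L*-positive cells to leptotene-zygotene cells. Points are the 3 ovaries, bars their mean and whiskers the SD. *syce2.L* and *tex11.L* are highest in the leptotene-zygotene cells, and in the *rec8.L*-positive cells both are farthest from 0 in ovary 3. *fen1.L* is at 6.90 or more in all *rec8.L*-positive sums.

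Of 53 tested DNA replication genes 7 were called higher and 5 lower, close to the shares of 11.6 and 10.2% over all genes, with a median log2 difference of 0.23. Over all cells edgeR called 0 of 84, with 6 higher and 10 lower at an unadjusted p under 0.05. *mcm6.L* had 1.67, 1.72 and 1.08 UMIs per 10000 in the *rec8.L*-positive cells, against 0.159, 0.507 and 0.735 in the leptotene-zygotene cells (log2 difference 1.80 ± 0.39 SE). *pcna.S*, the sliding clamp, had 1.78, 1.72 and 2.16 against 0.901, 0.925 and 1.24 (0.98 ± 0.28 SE). *dnmt1* was higher in both homeologs. The lower genes included *rrm1.S* and *dut.S*, of nucleotide supply, *dhfr.L*, of folate metabolism, and *rfc2.L*, of the clamp loader. *rrm1.S*, the large subunit of ribonucleotide reductase, had 2.09, 2.86 and 4.14 against 5.88, 7.03 and 9.23. No ovary overlapped for these genes.

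Of 18 tested genes of mitotic division 6 were called lower and 0 higher, where 10.2% of all tested genes were called lower, and the median log2 difference was -0.78. Over all cells 1 of 36 was called lower, with a median of -0.12. *cdca8.L*, borealin of the chromosomal passenger complex, had 1.88, 1.13 and 1.44 UMIs per 10000, against 4.88, 5.18 and 4.32 in the leptotene-zygotene cells. *kif2c.L*, a microtubule depolymerase of centromeres, had 0.105, 0.454 and 0.901 against 1.86, 1.72 and 1.65, and *nuf2.L*, of the kinetochore, had 0.209, 0.408 and 0.721 against 1.22, 1.62 and 1.56. The rule's term on *ccnb3.S*, a cyclin, was the same in both groups. Among cohesin regulators *wapl.L*, which releases cohesin, was higher (0.75 ± 0.23 SE). *nipbl.L*, which loads it, and *sgo2.L*, which protects it at centromeres, were lower (-0.79 ± 0.25 and -0.88 ± 0.30 SE).

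The genes with the largest rises against the leptotene-zygotene cells were of other kinds. *gadd45a.L* had 2.93, 3.54 and 3.06 UMIs per 10000, against 0.318, 0.302 and 0.551 (log2 difference 3.27 ± 0.30 SE, adjusted p = 4.05e-06 by edgeR). *cdc42.L*, a small GTPase of cell polarity, had 3.87, 2.99 and 2.34 against 0.318, 0.498 and 0.367. *ubtf.L*, the upstream binding factor of ribosomal RNA genes, had 3.55, 3.68 and 3.78 against 1.01, 0.658 and 0.459. All 3 were apart from the leptotene-zygotene cells in every ovary. *vrk3.L* (a kinase-like protein), *cdca7.L* (which recruits a chromatin remodeller), *ptma.L* (prothymosin) and *calr.S* (calreticulin) were higher by 2.21 to 2.88 on the log2 scale. *rbm46.L*, an RNA-binding protein needed for meiotic entry in the mouse, had 4.70, 4.63 and 2.52 against 1.96, 0.738 and 1.29 (1.87 ± 0.34 SE) and was 1 call of 2 tested genes of meiosis entry. *morc1.S*, which silences transposons in the mouse germline, had 1.25, 2.18 and 0.901 against 0.530, 0.578 and 0.689.

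Of 8 tested oocyte genes outside the 3 used to set cells aside, 4 were called lower than in the leptotene-zygotene cells and 0 higher. Of all tested genes 10.2% were called lower and 11.6% higher. *ybx2* was lower in both homeologs, with *ybx2.L* at 0.523, 0.635 and 1.26 UMIs per 10000 against 2.23, 2.21 and 2.30. *lhx8.L*, a transcription factor of primordial follicles, had 0.105, 0.227 and 0.721 against 0.583, 1.28 and 1.52. Since cells with *figla.L*, *velo1.L* or *42sp43.L* were set aside in both groups, these levels describe only the cells that were left.

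The axoneme and cilium symbols were not all of a kind against the leptotene-zygotene cells. Of 68 tested, 7 were called higher and 8 lower, where 11.6 and 10.2% of all tested genes were. The median log2 difference was -0.17 against -0.03 over all genes tested. Over all cells 0 were called higher and 7 lower of 86, where 1.33 and 2.7% of all tested genes were. There 76 of the 86 were lower and the median was -0.92. No family gene was called without ovary 2, in either set of cells, or over all cells without ovary 3. In the cells without oocyte transcripts *rsph6a.L*, *mns1.S*, *dnal1.L* and *traf3ip1.S* stayed higher, with *mns1.S* at 3.14, 3.68 and 2.34 UMIs per 10000 against 0.954, 0.409 and 0.597 (2.57 ± 0.33 SE). *odad2.S*, *efcab10.L* and *cfap54.L* were not called, at log2 differences of 0.26 ± 0.26, -0.04 ± 0.25 and 0.22 ± 0.33 SE. *cfap45.S* was lower, at 2.82, 2.31 and 2.16 against 4.40, 4.39 and 3.63 (-0.66 ± 0.23 SE, adjusted p = 0.0485 by edgeR). *cfap74.L*, of the central pair of microtubules, had 0.105, 0.0454 and 0.180 against 0.795, 1.80 and 1.10. The dynein heavy chains were near 0 as well. *dnah6.S* had 0.209, 0.0908 and 0.180 against 1.01, 1.27 and 0.965, and *dnah7.L* had 0.314, 0.227 and 0 against 1.01, 0.978 and 1.06. The sign of the family's median changed to 0.07 without ovary 1 and to 0.05 with the deeper sums thinned.

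The *rec8.L*-positive cells were also compared among themselves, those with a UMI of *hormad1.S* or *sycp1.L* (21, 154 and 18 cells in ovaries 1, 2 and 3) against those with none (32, 198 and 67 cells). The cells with such a UMI were deeper, at a median of 3673, 10164 and 6118 UMIs, against 2207, 3974 and 1645. This gap follows at least in part from the rule. In a shallow enough cell a single UMI of either gene reaches the limit per 10000 UMIs, and the cell is excluded. Shallow cells could thus enter only the group with none, and no difference in depth is read from these medians. edgeR called 0 of 2770 genes (0%), with 21 at an unadjusted p under 0.05, and DESeq2 called 0. With the ovary as a block edgeR called 52 genes, 16 higher and 36 lower. Among the cells without oocyte transcripts only ovaries 1 and 2 had at least 10 cells on both sides. There edgeR called 0 of 1012 genes, with 24 at an unadjusted p under 0.05. The difference in depth and the difference in these genes cannot be told apart here.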

How the data were processed

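Single-cell libraries of 3 ovaries were prepared by the authors with 10x Chromium GEM-X chemistry. The deposited files hold raw UMI counts per gene and cell barcode, made by the authors with Cell Ranger 8.0.1 (submitters' processing notes) and not normalized. The genome build is not given in the sources used here, so no coordinates or sequences are printed. The 3 libraries held 5987, 6302 and 6964 barcodes with 54585110, 50307231 and 34060121 UMIs, and features without a gene name (0.363 to 0.443% of UMIs) were left out. Rows with the same name were added, which gave 41881 genes. Groups were defined by counts of marker genes and not by clusters, and the members and gene lists were chosen with earlier results of these data known.

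Levels are UMIs per 10000 UMIs of the summed cells of an ovary. Sums of at least 10 cells were tested with edgeR 4.0.16 in R 4.3.3 (quasi-likelihood test, TMM normalization, filterByExpr), two-sided, with a Benjamini-Hochberg adjusted p threshold of 0.05. Every adjusted p is from edgeR. The replicates are separate ovaries and p-values measure the spread between them. Sums of an ovary come from the same animal, which pairs them; their deviations correlated at 0.08 to 0.62 in the comparisons, with the lowest value in ovary 3. Genes are named by a rule. In each comparison these are the 8 called genes with the largest rise and the 8 with the largest fall. Up to 4 in each direction were added from each of 20 gene lists, with the homeologs of the rule's genes. Each needed 20 or more counts per sum on average and the same direction in 3 of 3 ovaries. Names that start with LOC, XB or MGC were not used. Other genes are named as chosen after their values were seen.

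The alternatives were the ovary as a block, DESeq2 1.42.0, its size factors, no filter, leaving out each ovary, thinning the deeper sum, other limits on cells and genes, and leaving out cells with oocyte transcripts. The alternatives tried within these last cells, and the limit of 5000 UMIs, were added after the data were seen. Doublets were left in the main results. Scrublet (scanpy 1.11.5, expected rate 5%) marked 48, 65 and 8 cells, and 3, 21 and 4 members were in the top 5% of scores. Barcodes of 1 member were found in another ovary. In simulated sums, the test found 34% of genes changed 4-fold against the *rec8.L*-negative cells over all cells (12359 genes) and 97% without oocyte transcripts (4067 genes). Of genes changed 2-fold it found 1% and 48%. Of the calls in simulated sums over all cells, 5.41% were false against the *rec8.L*-negative cells, 8.04% against the oogonia and 14.0% against the leptotene-zygotene cells. Without oocyte transcripts these shares were 1.36, 4.79 and 3.125%. The simulated sums were drawn independently, without the pairing by ovary. Intervals of shares are exact binomial at 95%. Python 3.11.15, numpy 2.4.6, pandas 2.3.3, scipy 1.17.1 and matplotlib 3.10.9 handled tables and figures.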

Additional observations from a re-analysis of the deposited data

How the results depend on the processing

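The call counts differed between the settings of the fit and between the sets of cells used. Against the *rec8.L*-negative cells, the count of 0 became 90 with the replicate block, 1 by DESeq2, 13 without a filter on low counts, 141 without oocyte transcripts and 134 in cells under 5000 UMIs. In the cells without oocyte transcripts, the count of 141 became 606 with the block, 69 by DESeq2 and 0 to 57 when an ovary was left out. Against the oogonia, the count of 52 became 428 with the block, 385 without a filter, 3 after thinning, 27 with at least 2 *rec8.L* UMIs, 303 without oocyte transcripts, 151 under 5000 UMIs and 0 to 174 without an ovary. Without oocyte transcripts, 303 became 487 with the block, 93 by DESeq2, 159 without a filter and 45 to 271 without an ovary. Against the leptotene-zygotene cells, 390 became 1566 with the block, 976 without a filter, 211 after thinning, 112 with at least 2 *rec8.L* UMIs, 159 with *ddx4* and *dazl* at 40 or more per 10000, 989 without oocyte transcripts, 1293 under 5000 UMIs and 0 to 550 without an ovary. Without oocyte transcripts, 989 became 539 by DESeq2, 528 after thinning and 12 to 935 without an ovary. Among the *rec8.L*-positive cells, 0 became 52 with the block and 1 under 5000 UMIs. The numbers of cells became 26, 116 and 32 with at least 2 *rec8.L* UMIs and 35, 102 and 32 without oocyte transcripts. In ovary 2 they became 223 with the stricter germ cell limit and 128 under 5000 UMIs. Among genes picked by the naming rule, none changed sign between the main fit and an alternative where either fit called it. Changes of sign without a call were not counted. The cause of these shifts was not tested.

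The pairing of sums by ovary changed 3 calls of 2 named homeologs, *zp4.S* against the *rec8.L*-negative cells (log2 difference -0.97, adjusted p = 0.0385 by edgeR) and *cyp26a1.L* against both the oogonia (-2.34, adjusted p = 0.000283) and the leptotene-zygotene cells (2.55, adjusted p = 0.0112). It also changed the calls of *smc1b.L*, *spata22.L* and *mcm6.L*, which are given beside their values. In single cells of this depth most genes have few UMIs, and the filter kept 2302 to 4534 genes in the comparisons without oocyte transcripts.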
